A study of Mus musculus with 12 samples.

Results

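The genes followed here encode laminin chains, nidogens and perlecan, the proteins that together with type IV collagen build the basement membrane. There were 10 of them, chosen by gene symbol and not by level: Lama1, Lama4, Lama5, Lamb1, Lamb2, Lamb3, Lamc1, Nid1, Nid2 and Hspg2. A probe in the platform annotation was found for 9 of the 10, among 15357 genes with a probe, and each of the 9 had 1 probe. Lama5 had 0 probes and is not analysed here. The probes of 8 genes passed the filter on dim signal and that of Lamb3 did not.

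A basement membrane is a thin sheet of extracellular matrix under epithelia and endothelia and around muscle and fat cells. Laminins are heterotrimers of an alpha, a beta and a gamma chain that assemble into a network on the cell surface. Nidogens link that network to the collagen network, and perlecan, a large proteoglycan with heparan sulfate chains, binds both and holds growth factors. In the early mouse embryo the primitive endoderm, and the parietal endoderm that arises from it, are known as strong producers of laminin and type IV collagen.

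Transcript levels had been measured on 12 Illumina bead arrays of total RNA, 3 for each of 4 groups. Sphere cells at passage 15 and sphere cells at passage 5 were labelled as converted cells of strain FVB/N, with fibroblasts as their source. By the title of the study, the conversion was induced in a medium containing AlbuMAXI, a lipid-rich serum albumin. The fibroblasts (MEF), also of strain FVB/N, were neomycin resistant primary cells from mouse embryos, PMEF_NL in the labels. J11 embryonic stem cells (MES), of strain 129/Sv, were the study's control population. The labels do not say that the 3 arrays of a group came from separate cultures, so p-values measure the spread between these arrays, which may be technical.

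The arrays lay on 3 chips. Chip 1 held all passage 15 and MES arrays, chip 2 held replicates 1 and 2 of passage 5 spheres and MEF, and chip 3 held their replicate 3. Passage 15 against MES and passage 5 against MEF could therefore be compared within chips, while in the other 4 comparisons chip and group cannot be told apart. In both comparisons of spheres with MES, and in that of MEF with MES, strain and group cannot be told apart either. Each array detected 15761 to 19060 probes (33.8% to 40.9%), and arrays of a group correlated at 0.976 to 0.996 across genes.

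The arrays labelled MEF held transcripts of pluripotent cells beside those of fibroblasts. Of 12 pluripotency genes, 10 were detected on all 3 of these arrays, against 11 on the MES arrays. Pou5f1, the pluripotency factor Oct4, had a log2 intensity of 11.55 ± 0.47 (SD, n = 3) on the MEF arrays, against 12.69 ± 0.08 (n = 3) on the MES arrays. These are values of its brighter probe. Its other probe that passed the filter differed by 0.01 on the log2 scale between MEF and MES. All 14 fibroblast genes with a probe were detected on all 3 MEF arrays. Comparisons with MEF below are comparisons with the arrays so labelled.

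Levels are log2 intensities after background correction and quantile normalization. A gene was called as changed at a Benjamini-Hochberg adjusted p under 0.05, from 1 limma fit over all 19444 kept probes and 12 arrays, together with a difference of at least 2-fold. Where a probe was not detected (detection p of 0.05 or more) on any array of the dimmer group, the fold is a lower bound ("at least") against the lowest detected signal of those arrays. The probe's own signal was taken where it was higher. In these bulk samples fewer cells of a type and less RNA per cell cannot be told apart. Levels of different genes were not set against each other, since each probe has its own brightness.

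**Figure D1:**
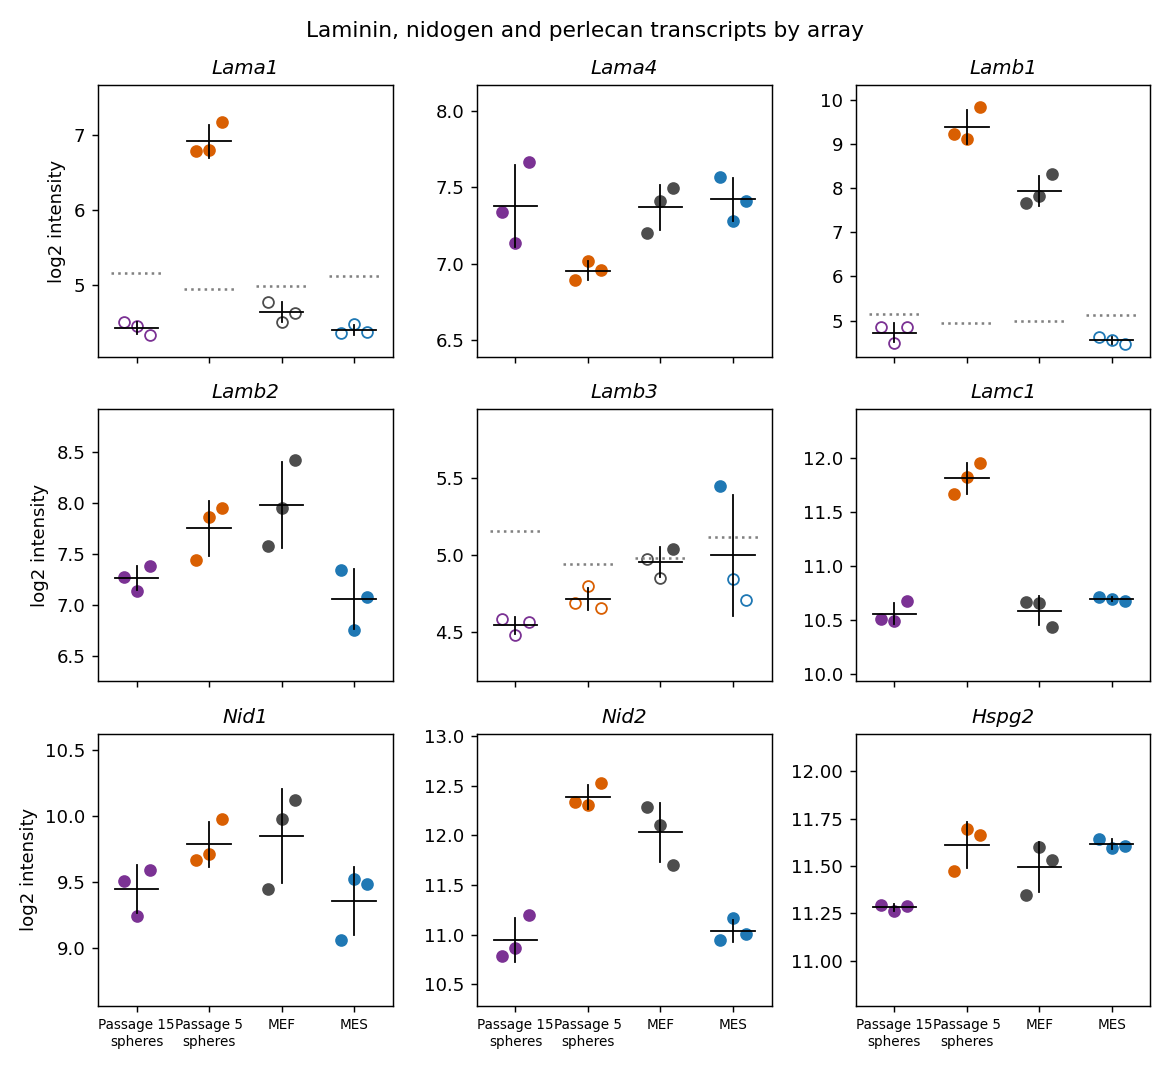
Log2 intensity of the 9 probes on each array (y axis), by group from left to right: passage 15 spheres, passage 5 spheres, MEF and MES. Filled points were detected and open points were not, lines and bars are mean and SD (n = 3), and dotted lines mark the lowest detected signal of a group. Lama1, Lamb1, Lamc1 and Nid2 stood highest in passage 5 spheres, and Lama1 was undetected elsewhere. Each panel has its own axis, and none starts at 0.

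Among the alpha chains, Lama1 was detected in passage 5 spheres alone. It encodes the alpha chain of the first laminins of the embryo and a chain of Reichert's membrane, the thick basement membrane laid down by parietal endoderm. Its log2 intensity was 4.50, 4.45 and 4.34 on the passage 15 arrays, 6.78, 6.79 and 7.16 on the passage 5 arrays, 4.77, 4.50 and 4.63 on the MEF arrays, and 4.35, 4.48 and 4.37 on the MES arrays. The 3 passage 5 arrays stood above all 9 others, and none of those 9 detected the probe. The level averaged 6.91 ± 0.22 (SD, n = 3) in passage 5 spheres. Before normalization the background-subtracted intensities were -3.1, -6.5 and -15.1 on the passage 15 arrays, against 176.1, 160.3 and 147.8 on the passage 5 arrays. Lama1 passed the filter through the passage 5 arrays alone, so its place among the genes tested already required it to be high there.

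Lama1 was at least 3.38-fold lower in passage 15 than in passage 5 spheres (adjusted p 2.16e-07). It was at least 3.81-fold higher in passage 5 spheres than in MEF (adjusted p 3.13e-07). Against MES it was at least 3.47-fold higher in passage 5 spheres (adjusted p 1.55e-07). Among passage 15 spheres, MEF and MES no fold is given, since the probe was not well above background in any of them.

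Lama4 ran the other way, by less than 2-fold. It encodes the alpha chain of blood vessel and mesenchymal basement membranes. Its level was 7.33, 7.14 and 7.67 on the passage 15 arrays and 6.89, 7.02 and 6.96 on the passage 5 arrays. On the MEF arrays it was 7.20, 7.41 and 7.49, and on the MES arrays 7.57, 7.28 and 7.41. All 3 passage 5 arrays lay below every other array, while the other 3 groups overlapped. The difference was 0.42 for passage 15 against passage 5 spheres (95% interval 0.10 to 0.75, adjusted p 0.0289), -0.41 for passage 5 spheres against MEF (-0.74 to -0.08, adjusted p 0.0605) and -0.46 for passage 5 spheres against MES (-0.79 to -0.14, adjusted p 0.0218). When each array was scaled to the median of all its probes instead, passage 15 against passage 5 came out at -0.46 and passage 5 against MES at 0.40, so the direction of Lama4 in both depended on the scaling.

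Among the beta chains, Lamb1 was detected in passage 5 spheres and MEF and in neither passage 15 spheres nor MES. It encodes the beta chain that pairs with Lama1 in the early embryo. Lamb1 stood at 4.86, 4.48 and 4.85 on the passage 15 arrays, 9.22, 9.12 and 9.83 on the passage 5 arrays, 7.67, 7.82 and 8.31 on the MEF arrays, and 4.62, 4.56 and 4.47 on the MES arrays. Every passage 5 and MEF array detected it, and 0 of the others did. The passage 5 arrays did not overlap the MEF arrays, and both lay far above the rest. Means were 4.73 ± 0.21 in passage 15 spheres, 9.39 ± 0.39 in passage 5 spheres, 7.93 ± 0.33 in MEF and 4.55 ± 0.08 in MES (SD, n = 3 each). Passage 5 spheres thus came highest and MEF next, and passage 15 spheres and MES, both below background, have no order. Background-subtracted intensities before normalization were 1018.5, 880.7 and 1030.8 on the passage 5 arrays, against 281.9, 227.8 and 277.9 on the MEF arrays.

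Lamb1 was at least 18.8-fold lower in passage 15 than in passage 5 spheres (adjusted p 3.71e-08). Lamb1 was at least 6.86-fold lower in passage 15 spheres than in MEF (adjusted p 2.50e-07). It was 2.74-fold higher in passage 5 spheres than in MEF, at a log2 difference of 1.46 (SE 0.21, adjusted p 2.24e-04). Against MES, passage 5 spheres were at least 19.3-fold higher (adjusted p 2.17e-08) and MEF at least 7.04-fold higher (adjusted p 2.76e-07).

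Lamb2 was called in 0 of the 6 comparisons. It encodes the beta chain found at the neuromuscular junction and in the kidney glomerulus. Lamb2 stood at 7.28, 7.14 and 7.38 on the passage 15 arrays, 7.44, 7.86 and 7.95 on the passage 5 arrays, 7.58, 7.95 and 8.42 on the MEF arrays, and 7.34, 6.75 and 7.08 on the MES arrays. The passage 5 and MEF arrays overlapped, as did the passage 15 and MES arrays, and the first pair of groups lay above the second without overlap. The difference was -0.72 for passage 15 spheres against MEF (adjusted p 0.0117), 0.70 for passage 5 spheres against MES (adjusted p 0.0185) and 0.93 for MEF against MES (adjusted p 0.00317). For passage 15 against passage 5 spheres it was -0.49 (95% interval -0.96 to -0.01, adjusted p 0.0738), and for passage 5 spheres against MEF -0.23 (-0.70 to 0.24, adjusted p 0.511). Scaling to the median of all probes put Lamb2 past 2-fold for passage 15 against passage 5 spheres (-1.38), passage 15 spheres against MEF (-1.31), passage 5 spheres against MES (1.58) and MEF against MES (1.51). Scaling to the median of the probes detected on all arrays did so for MEF against MES alone (1.06).

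Lamb3, the beta chain of the laminin that anchors epidermis and other epithelia, stayed near background. It was detected on 0 passage 15 and 0 passage 5 arrays, on 1 MEF array and on 1 MES array. Its mean log2 intensity was 4.54 in passage 15 spheres, 4.71 in passage 5 spheres, 4.96 in MEF and 5.00 in MES. No test was made on it.

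The upstream sequences of Lamb1 and Lamb2 are shown because these paralogous chains differed in their calls, with Lamb1 called in 5 of the 6 comparisons and Lamb2 in 0. Upstream windows were found for 6 of the 10 genes in the RefSeq table of build GRCm38.p6, each the 250 bases before an annotated start. Lamb1 is given from chr12:31265043-31265292 and Lamb2 from chr9:108479612-108479861, both on the plus strand. Capitals mark the GC box, GGGCGG on either strand, so CCGCCC in the reverse sense.
Lamb1: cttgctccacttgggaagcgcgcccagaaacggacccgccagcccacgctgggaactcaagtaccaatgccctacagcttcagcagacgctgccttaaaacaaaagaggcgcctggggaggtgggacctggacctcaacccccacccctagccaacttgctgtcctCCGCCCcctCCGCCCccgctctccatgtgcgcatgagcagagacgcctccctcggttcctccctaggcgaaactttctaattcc
Lamb2: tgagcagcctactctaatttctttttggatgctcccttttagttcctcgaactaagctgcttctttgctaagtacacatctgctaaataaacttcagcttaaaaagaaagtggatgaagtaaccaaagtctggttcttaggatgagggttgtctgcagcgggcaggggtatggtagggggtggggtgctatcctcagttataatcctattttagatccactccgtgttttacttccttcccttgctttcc
The Lamb1 window held 2 GC boxes and 62.0% G and C, and the Lamb2 window held 0 GC boxes and 43.6% G and C. Of all 32851 windows of that length in the table, 32.7% held a GC box, and the median content of G and C was 52.4%. GC boxes numbered 5 in the Hspg2 window, 4 in that of Lama5 and 1 in that of Nid1, against 0 in both windows of Lamb3. None of the windows of these 6 genes held AGATAA (in 9.99% of all windows), ACAAT (27.7%), TGANTCA (6.75%) or TATAAA (12.4%), searched on both strands. A match in these letters is a description of the window and not of binding.

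Lamc1, the gamma chain of most laminins and the one that carries the nidogen binding site, was raised in passage 5 spheres against each of the other groups. Its log2 intensity was 10.51, 10.49 and 10.68 on the passage 15 arrays, 11.66, 11.82 and 11.95 on the passage 5 arrays, 10.67, 10.66 and 10.43 on the MEF arrays, and 10.71, 10.70 and 10.68 on the MES arrays. The lowest passage 5 array lay above the highest of the other 9 arrays, and the other 3 groups stood close together. Passage 15 spheres were 2.37-fold lower than passage 5 spheres, at a log2 difference of -1.25 (SE 0.12, adjusted p 9.26e-06). Passage 5 spheres were 2.33-fold higher than MEF, at 1.22 (SE 0.12, adjusted p 1.92e-05), and 2.16-fold higher than MES, at 1.11 (SE 0.12, adjusted p 2.56e-05). The last of these fell short of 2-fold, at 0.93, when arrays were scaled to the median of the probes detected on all 12 arrays.

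Lamc1 averaged 10.56 ± 0.10 in passage 15 spheres, 11.81 ± 0.14 in passage 5 spheres, 10.59 ± 0.13 in MEF and 10.70 ± 0.02 in MES (SD, n = 3 each). No difference among passage 15 spheres, MEF and MES passed the test. The difference was -0.03 for passage 15 spheres against MEF (95% interval -0.29 to 0.24), -0.14 for passage 15 spheres against MES (-0.40 to 0.13) and -0.11 for MEF against MES (-0.38 to 0.16). Lamc1 shared its peak in passage 5 with Lama1 and Lamb1, the chains it joins in the early embryonic laminin. It did not share the MEF level of Lamb1, which was at least 7.04-fold above MES where Lamc1 differed by -0.11 on the log2 scale.

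Nid2, one of the nidogens that tie laminin to the collagen network, was high in passage 5 spheres and in MEF. Its log2 intensity was 10.78, 10.86 and 11.20 on the passage 15 arrays, 12.34, 12.30 and 12.52 on the passage 5 arrays, 12.29, 12.10 and 11.70 on the MEF arrays, and 10.94, 11.16 and 11.01 on the MES arrays. Passage 5 arrays lay just above the MEF arrays without overlap, and both lay above the passage 15 and MES arrays, which overlapped. Its mean was 10.95 ± 0.22 in passage 15 spheres, 12.39 ± 0.12 in passage 5 spheres, 12.03 ± 0.30 in MEF and 11.04 ± 0.11 in MES (SD, n = 3 each). Nid2 was 2.71-fold lower in passage 15 than in passage 5 spheres (log2 difference -1.44, SE 0.17, adjusted p 2.55e-05). It was 2.12-fold lower in passage 15 spheres than in MEF (-1.08, adjusted p 1.17e-04), a call lost without passage 15 replicate 1 (-0.999, just short of 2-fold) or without MEF replicate 1 (-0.95).

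Against MES, Nid2 was 2.55-fold higher in passage 5 spheres (log2 difference 1.35, SE 0.17, adjusted p 5.18e-05). MEF against MES passed on p but not on fold, at 0.99 (adjusted p 3.13e-04). Passage 5 spheres against MEF came to 0.36 (95% interval -0.003 to 0.72, adjusted p 0.138), and passage 15 spheres against MES to -0.09 (-0.45 to 0.27).

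Nid1, the other nidogen, was called in none of the 6 comparisons. Nid1 stood at 9.51, 9.24 and 9.59 on the passage 15 arrays, 9.66, 9.71 and 9.98 on the passage 5 arrays, 9.45, 9.98 and 10.12 on the MEF arrays, and 9.06, 9.53 and 9.49 on the MES arrays. MEF arrays overlapped every other group, and the passage 5 arrays lay above the passage 15 and MES arrays. The difference was -0.34 for passage 15 against passage 5 spheres (95% interval -0.76 to 0.08, adjusted p 0.151), 0.43 for passage 5 spheres against MES (0.01 to 0.84, adjusted p 0.0816) and 0.49 for MEF against MES (0.07 to 0.91, adjusted p 0.0434). Scaling to the median of all probes put Nid1 past 2-fold for passage 15 against passage 5 spheres (-1.15) and for passage 5 spheres against MES (1.19).

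Hspg2, which encodes perlecan, was not called in any of the 6 comparisons. Its log2 intensity was 11.29, 11.26 and 11.29 on the passage 15 arrays, 11.47, 11.70 and 11.66 on the passage 5 arrays, 11.35, 11.60 and 11.53 on the MEF arrays, and 11.64, 11.60 and 11.60 on the MES arrays. All 3 passage 15 arrays lay below every other array, by a small margin, and the other 3 groups overlapped. Passage 15 against passage 5 spheres differed by -0.33 (95% interval -0.58 to -0.08, adjusted p 0.0285) and passage 15 spheres against MES by -0.33 (-0.59 to -0.08, adjusted p 0.0537). Passage 5 spheres and MES differed by -0.004 (-0.26 to 0.25), and passage 5 spheres and MEF by 0.12 (-0.14 to 0.37). With scaling to the median of all probes, Hspg2 was called for passage 15 against passage 5 spheres (-1.003), and passage 5 spheres against MES came to 0.61.

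Passage 15 was compared with passage 5 to see what changed between early and late spheres. Of the 8 measured genes 4 fell (Lama1, Lamb1, Lamc1 and Nid2), 0 rose and 4 were not called, where 17% of the 9343 genes tested were called, 6.73% higher and 10.3% lower. Lama1 had to be high in passage 5 spheres to be tested at all, and of the other 7 genes 3 fell. The median difference was -0.87 over the 8 genes, with Lama1 and Lamb1 at their fitted values or at their bounds, and 0.01 over all genes. The same number, 4, was called with any of the 6 arrays left out. A limit here is the scaling. With each array scaled to the median of all its probes, the median of all genes was itself -0.68 and the count became 7, through Lamb2 (-1.38), Nid1 (-1.15) and Hspg2 (-1.003).

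The spheres were then set against the arrays labelled MEF. At passage 15, 2 of 8 genes fell (Lamb1 and Nid2) and 0 rose, where 26.5% of all genes were called, 12.2% higher and 14.3% lower. The count was 1, Lamb1 alone, without passage 15 replicate 1 or without MEF replicate 1. The median was -0.31 over the 8 genes and 0.13 over all genes. At passage 5, 3 of 8 rose (Lama1, Lamb1 and Lamc1) and 0 fell, where 11.8% of all genes were called, 4.86% higher and 6.94% lower. Without Lama1, which passed the filter through passage 5 alone, 2 of 7 rose. The passage 5 count was 3 with any of the 6 arrays left out. The median there was 0.24 over the 8 genes and 0.05 over all genes.

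Passage 5 spheres and MEF shared chips 2 and 3, so this comparison was also made within chips. On chip 2 alone, with 2 arrays against 2, the fitted differences were 2.15 for Lama1, undetected in MEF, 1.42 for Lamb1 and 1.08 for Lamc1. On chip 3, with 1 array against 1 and no test, they were 2.53, 1.53 and 1.51 for the same genes. With chip as a fixed block all 3 genes were still called (adjusted p 1.09e-04 for Lama1, 2.40e-04 for Lamb1 and 7.18e-04 for Lamc1).

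Embryonic stem cells were the study's reference. Passage 15 spheres differed from them in 0 of the 8 genes at adjusted p under 0.05 in the limma fit, at any fold, where 26.1% of all genes passed at any fold and 6.87% were called at 2-fold, 3.35% higher and 3.52% lower. At an unadjusted p under 0.05 there was 1, Hspg2 (p 0.0140), whose adjusted p was 0.0488 with chip as a random block, at under 2-fold. Lama1 and Lamb1 were not well above background in either group. For the other 5 genes the 95% intervals of the difference lay within -0.45 and 0.68. Passage 5 spheres had 4 of 8 genes higher than MES (Lama1, Lamb1, Lamc1 and Nid2) and 0 lower, where 14.6% of all genes were called, 9.95% higher and 4.68% lower. Without Lama1 it was 3 of 7. The 4 became 6 with scaling to the median of all probes, through Lamb2 (1.58) and Nid1 (1.19), and 3 with scaling to the median of the detected probes, without Lamc1. MEF had 1 of 8 higher, Lamb1, and 0 lower, where 21.3% of all genes were called, 13% higher and 8.27% lower. The MEF count became 2 when 1 array was left out, through Lamb2 without MEF replicate 1 (1.13) or MES replicate 1 (1.07) and through Nid2 without MEF replicate 3 (1.16) or MES replicate 2 (1.06).

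The comparisons share arrays, so their differences are not independent of one another.

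**Figure D2:**
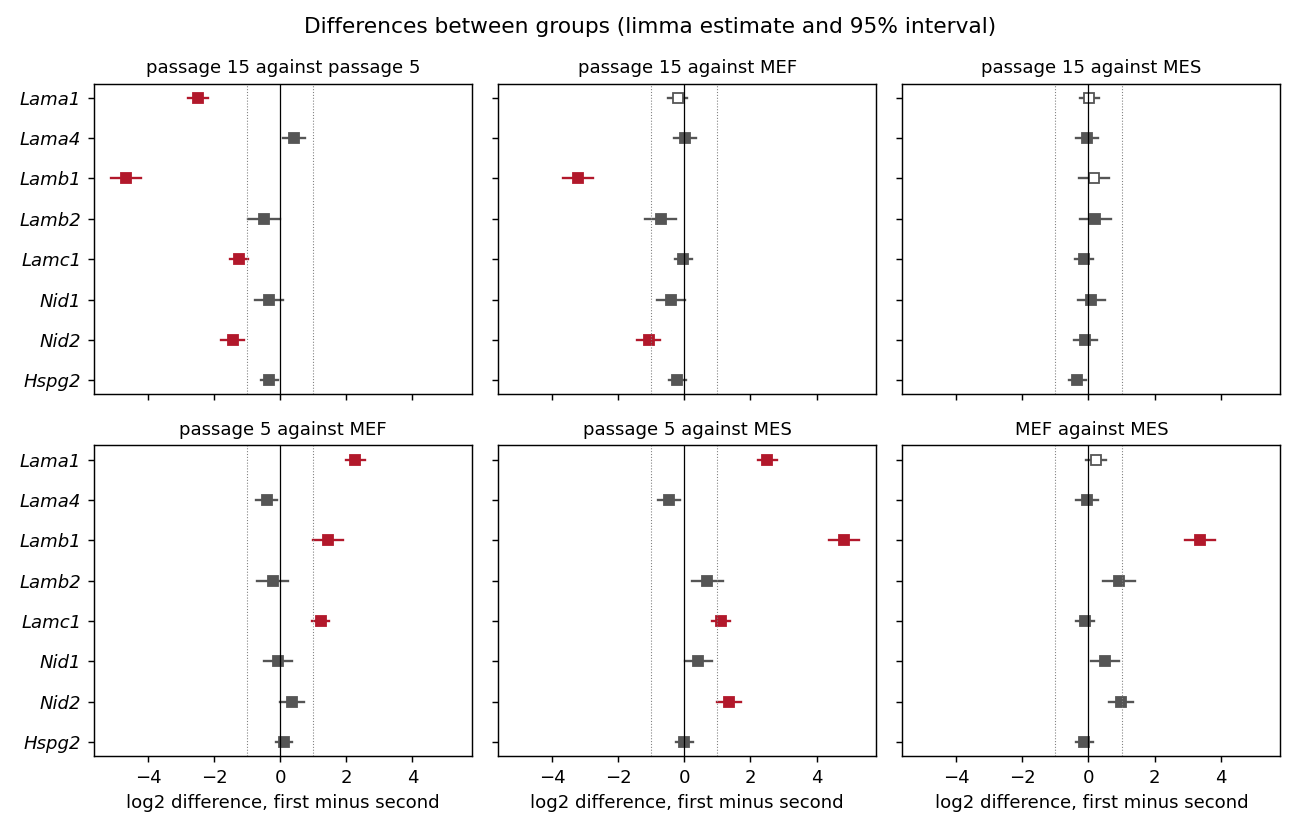
Log2 difference (x axis) of the 8 measured genes in each of the 6 comparisons, with its 95% interval from the limma fit. Red squares were called, open squares were not well above background in either group, and dotted lines mark 2-fold. Values against a group without detection (Lama1, Lamb1) are fitted estimates, for which the text gives bounds. Passage 15 against MES has 0 red squares, and Lamb1 is red in the other 5 panels.

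The other parts of the basement membrane were described from a list of 24 genes, of which 21 had a probe and 13 passed the filter. Between passage 15 and passage 5 spheres, where 10.3% of all genes fell and 6.73% rose, 5 of the 13 fell and 0 rose. They were Col4a1 and Col4a2, the chains of the most widespread type IV collagen, Sparc, a collagen-binding matrix protein, Smoc1, a relative of Sparc, and Tinagl1, a secreted basement membrane glycoprotein. Col4a1 stood at 9.44, 9.79 and 9.70 on the passage 15 arrays, 12.80, 12.90 and 13.38 on the passage 5 arrays, 11.41, 11.78 and 12.68 on the MEF arrays, and 10.30, 9.79 and 10.12 on the MES arrays. The passage 5 arrays stood above all others, and passage 15 spheres were 10.4-fold lower than they were (log2 difference -3.38, SE 0.28, adjusted p 3.05e-06). Sparc fell by 2.48, Col4a2 by 2.30, Tinagl1 by 1.74 and Smoc1 by 1.65 on the log2 scale.

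Passage 5 spheres against MEF gave a split picture in this list, with 1 of 13 higher and 4 lower. Among all genes 4.86% were higher and 6.94% lower. The 1 that rose was Col4a1, by 1.07 on the log2 scale (adjusted p 0.0113). That call was lost without passage 5 replicate 3 (0.89), MEF replicate 1 (0.80) or MEF replicate 2 (0.98), and also with scaling to the median of the detected probes (0.98). The count of genes higher ranged from 0 to 3 over the 6 arrays left out in turn, and was 3 with scaling to the median of all probes. The 4 that fell were Smoc2, a relative of Sparc (-2.74, detected on 2 of the 3 passage 5 arrays), Col7a1, the collagen of anchoring fibrils (-2.37), Col4a5, a further type IV collagen chain (-1.90, detected on 2 passage 5 arrays), and Col15a1, a collagen of vessel and muscle basement membranes. Col15a1 was detected on 0 passage 5 arrays and was at least 2.29-fold lower, a call lost in the authors' deposited log2 table (-0.91). The other kept probe of Col4a5 gave -0.65. Lama1, Lamb1 and Lamc1 were thus higher in passage 5 spheres than in MEF, while Smoc2, Col7a1, Col4a5 and Col15a1 were lower. Smoc2, Col4a5 and Col15a1 passed the filter through the MEF arrays alone, so they had to be high there to be tested.

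In passage 15 spheres, beside 14.3% of all genes lower than in MEF and 12.2% higher, 9 of the 13 were lower and 0 higher. Those detected in both groups were Sparc (5.42-fold), Col4a1 (4.96-fold), Smoc1 (3.25-fold) and Col4a2 (2.66-fold). Smoc2 (at least 8.09-fold), Col7a1 (at least 6.60-fold), Col4a5 (at least 3.79-fold), Col15a1 (at least 1.97-fold) and Lama2, a muscle laminin chain (at least 1.28-fold), were detected on 0 passage 15 arrays. In the authors' deposited log2 table Col15a1 (-0.89) and Lama2 (-0.75) were not called. The call of Lama2 was also lost without MEF replicate 2 (-0.89), without MEF replicate 3 (-0.997) and with scaling to the median of the detected probes (-0.60). Against MES, passage 15 spheres had 0 of 13 called in either direction, where 6.87% of all genes were. Passage 5 spheres had 4 higher than MES and 0 lower, namely Col4a1 (7.76-fold), Col4a2 (4.38-fold), Sparc (3.36-fold) and Tinagl1 (2.59-fold), the last not called in the authors' deposited log2 table (0.91). Among all genes 9.95% were higher and 4.68% lower in passage 5 spheres than in MES. MEF had 7 higher than MES, among them Smoc2 (at least 8.31-fold), and 0 lower, where 13% and 8.27% of all genes were. These counts are read against the shares of all genes called that are given above for each comparison. Smoc2, Col4a5, Col15a1 and Lama2 passed the filter through the MEF arrays alone, so their place among the 13 required them to be high there.

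**Figure D3:**
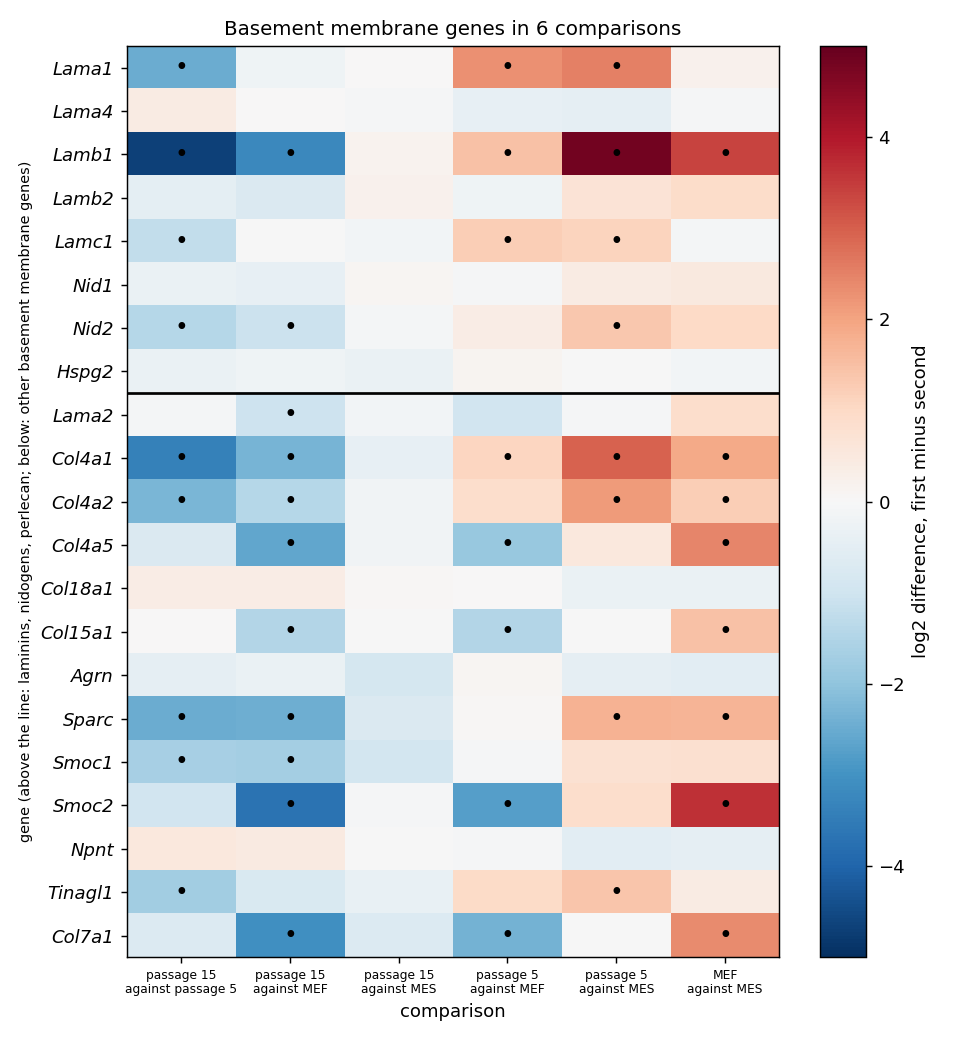
Log2 difference (colour, first group minus second) of the 8 measured laminin, nidogen and perlecan genes (above the line) and the 13 other basement membrane genes (below it) in the 6 comparisons along the x axis. Dots mark called differences, and colours against a group without detection are fitted estimates. The column of passage 15 against MES has 0 dots. In passage 5 against MEF the called laminin chains are higher, while of the other genes 4 are called lower and Col4a1 higher. Lama1 passed the filter through passage 5 alone, and Smoc2, Col4a5 and Col15a1 through MEF alone.

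Cells bind laminin through integrins, dystroglycan, the Lutheran glycoprotein and syndecans, and a list of 13 such receptor genes had 10 with a probe and 8 that passed the filter. Between passage 15 and passage 5 spheres 0 of the 8 were called, where 17% of all genes were. Itga6, an integrin alpha chain, differed most, at -1.34 on the log2 scale (adjusted p 0.142 in limma). Its SD was 2.24 between the passage 15 arrays and 0.06 between the passage 5 arrays. The other kept probe of Itga6 gave -1.45, and Itga6 too is named after its value was seen. In the same limma fit Dag1, the dystroglycan precursor, was just short of 2-fold at -0.93 (adjusted p 2.84e-04), and it is named here after its value was seen. The other kept probe of Dag1 differed more, by -1.66 on the log2 scale, so its place short of 2-fold depended on the probe. Passage 15 spheres had 3 lower than MEF, where 14.3% of all genes were lower: Sdc1 (at least 2.92-fold), Itgb1, the integrin beta chain of most laminin receptors (3.89-fold), and Sdc4 (2.76-fold). Passage 5 spheres had 2 lower than MEF, beside 6.94% of all genes, Itgb1 (2.87-fold) and Sdc1 (3.27-fold). Sdc1 passed the filter through the MEF arrays alone, so it had to be high there to be tested. The other kept probe of Itgb1 differed less, by -0.12 for passage 15 spheres against MEF and -0.67 for passage 5 spheres against MEF, on the log2 scale.

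Itga3, the integrin alpha chain of an epithelial laminin receptor, was lower than in MES in all 3 other groups: 3.39-fold in passage 15 spheres, 3.74-fold in passage 5 spheres and 3.15-fold in MEF. It was the 1 receptor called in each comparison of spheres with MES, where 3.52% (passage 15) and 4.68% (passage 5) of all genes were lower. Without passage 15 replicate 1 there were 3 lower in passage 15 spheres, and with the mean over the probes of a gene there were 2. MEF against MES had 2 higher (Sdc1 and Itgb1) and 2 lower (Itga3 and Bcam, the Lutheran glycoprotein), where 13% of all genes were higher and 8.27% lower. Sdc1 had to be high in MEF to be tested at all. Bcam was not called with scaling to the median of all probes (-0.78, adjusted p 0.0531 in limma) or in the authors' deposited log2 table (-0.99), each leaving 1 lower.

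Perlecan carries heparan sulfate, and of 14 genes for enzymes that build or trim such chains 11 had a probe and 9 passed the filter. Sulf1, which removes sulfate from the chains outside the cell, was 2.64-fold lower in passage 15 than in passage 5 spheres, the 1 call among the 9 there, where 10.3% of all genes were lower. That call was lost with the mean over its probes (-0.91), while scaling to the median of all probes called 5 of the 9 lower there. It was also lower than in MEF, by 7.77-fold in passage 15 spheres and 2.95-fold in passage 5 spheres. Its other kept probe gave smaller values, at log2 differences of -0.43, -1.64 and -1.21 in the same order. Ext1, a polymerase of the chain, was 3.38-fold lower in passage 15 spheres and 2.09-fold lower in passage 5 spheres than in MEF, the second call being lost without passage 5 replicate 3 (-0.98) or MEF replicate 3 (-0.90), on chip 2 alone (-0.81) and with scaling to the median of all probes (-0.69). Sulf1 and Ext1 were the 2 called lower than in MEF at each passage, and that scaling called 4 lower at passage 15. In both comparisons of spheres with MES 0 of the 9 were called, where 6.87% (passage 15) and 14.6% (passage 5) of all genes were. MEF had 2 higher than MES (Sulf1 and Ext1) and 0 lower, where 13% of all genes were higher.

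Markers of cell types were followed over the same arrays. Of 17 primitive and parietal endoderm genes 15 had a probe, and 7 were detected on all arrays of passage 15 spheres, 14 of passage 5 spheres, 10 of MEF and 8 of MES. Their summed linear intensity ran from 1543 to 1954 on the passage 15 arrays, 9492 to 13211 on the passage 5 arrays, 1887 to 2397 on the MEF arrays and 1505 to 1607 on the MES arrays. The passage 5 arrays, which had the highest Lama1, Lamb1 and Lamc1, thus also had the highest sum of this list. Of the 14 that passed the filter, 13 were lower in passage 15 than in passage 5 spheres and 0 higher. Among all genes 10.3% were lower and 6.73% higher there. Sox17, Ttr and Foxa2 passed the filter through the passage 5 arrays alone, so they had to be high there to be tested. Passage 5 spheres had 11 higher than MEF, where 4.86% of all genes were higher. Lower there were 2, Thbd (-1.02) and Plat (-1.18), where 6.94% of all genes were lower. Against MES passage 5 spheres had 13 higher and 0 lower, where 9.95% and 4.68% of all genes were. The parts of these markers in the laminin results were not tested.

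Fibroblast markers followed another pattern. Of 16 genes 14 had a probe, with a summed intensity of 649 to 787 on the passage 15 arrays, 1020 to 4615 on the passage 5 arrays, 24343 to 48226 on the MEF arrays and 1429 to 1684 on the MES arrays. Col1a2, Postn, Lum, Prrx1 and Twist2 were among those detected on 0 passage 15 arrays, and Col1a2 and Lum were detected on 0 passage 5 arrays. Within passage 5, Col1a1, the main fibroblast collagen, stood at 7.92, 7.24 and 5.78, lowest on replicate 3. That array, the passage 5 array on chip 3, had the highest Lama1, Lamb1 and Lamc1 of the 3 after quantile normalization. Before it, that array had the lowest intensity of Lama1 (147.8) and of Lamc1 (4501.1, against 5309.7 and 5438.6 on the other two) and the highest of Lamb1. Among the MEF arrays, replicate 3 had the highest Col1a1 (13.74), the highest Lamb1 (8.31) and the lowest Lamc1 (10.43) after normalization. The 5 smooth muscle genes summed to 116 to 122 on the passage 15 arrays, 111 to 457 on the passage 5 arrays, 3908 to 10518.5 on the MEF arrays and 134 to 199.6 on the MES arrays. Their part in the Lamb1 and Nid2 levels of MEF was not tested either.

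The 12 pluripotency genes, all with a probe, summed to 33498 to 36899 on the passage 15 arrays, 24681 to 26796 on the passage 5 arrays, 13971 to 24650.5 on the MEF arrays and 29248 to 30961 on the MES arrays. Of 8 epithelial genes 6 had a probe, and they summed to 804 to 960.3 on the passage 15 arrays, 1617 to 1740.1 on the passage 5 arrays, 1001 to 1631 on the MEF arrays and 2161 to 2644 on the MES arrays. The 9 endothelial genes summed to 2118 to 2642 on the passage 15 arrays, 2185 to 2751 on the passage 5 arrays, 949 to 1497 on the MEF arrays and 2382 to 2986 on the MES arrays. Of these, Pecam1, Vwf, Esam and Egfl7 were detected on all arrays of every group, and Cdh5 on the passage 5 arrays alone. Kdr and Tie1, receptors of vessel cells, were detected on 0 arrays. Of 4 macrophage genes with a probe, 0 were detected on all arrays of any group, Ptprc, Itgam and Tyrobp being detected on 0 arrays.

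Genes with the pattern most like each member were found by Pearson correlation over the 12 arrays among 9202 genes. The arrays fall into 4 groups, so such a correlation mostly follows the group means and is given as a description. Lama1 was most like Ttr (r = 0.994), the transport protein transthyretin and a gene of the endoderm list, and Gkn1 (0.993), a secreted protein of the stomach lining. Lamc1 was most like Gkn2 (0.989) and Gkn1 (0.989). Lamb1 was most like Cit (0.992), a kinase of cell division, and Nid2 most like Slc16a6 (0.985), a transporter of the monocarboxylate family. For Nid1 and Hspg2 the best matches were weaker, at 0.890 (Pja1) and 0.889 (Prss35). Among the members themselves Lama1 with Lamc1 reached 0.974 and Lamb1 with Nid2 0.952, while Lama1 with Lama4 gave -0.82.

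**Figure D4:**
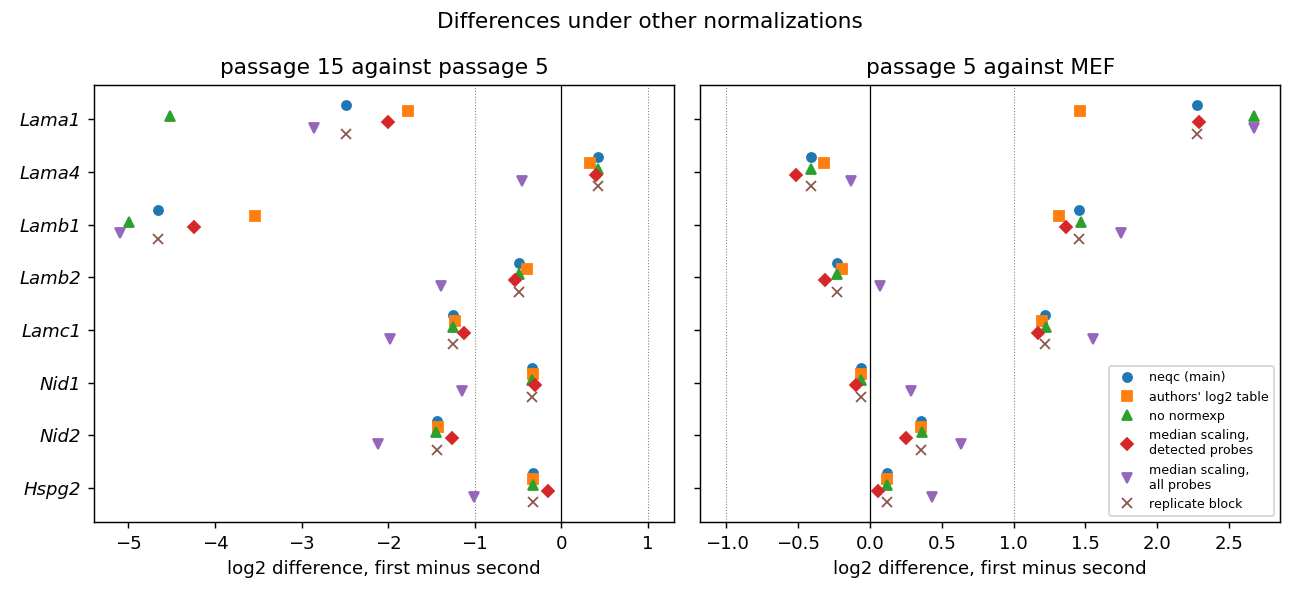
Log2 difference (x axis) of the 8 measured genes under 6 ways of processing, for passage 15 against passage 5 spheres (left) and passage 5 spheres against MEF (right). Dotted lines mark 2-fold. Lama1, Lamb1 and Lamc1 stay beyond 2-fold in both panels under all 6, while scaling to the median of all probes moves every gene on the left to a lower value and puts Lama4 below 0.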

How the data were processed

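Transcripts were measured on 12 Illumina bead arrays, 3 in each of 4 groups named by the labels. The raw intensity per probe was deposited by the authors as a linear signal, not normalized between arrays, and per the file headers each comes with a detection p-value against background. A log2 table, quantile normalized over the arrays, was also deposited by the authors and used as an alternative. The series matrix holds the same values (largest difference 0). The software behind both tables is not given in the sources used here.

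Of 46657 probes 20 were left out because the deposited table held a date in place of a number, leaving 46637. In R 4.3.3 the neqc function of limma 3.58.1 corrected them for background (normexp, offset 16) and made them quantile normalized log2 values. The filter kept 19444 probes, those detected (p under 0.05) on every array of some group. A gene stands at its brightest kept probe (9343 genes). Symbols came from the platform annotation, and all 22380 annotated probes matched RefSeq by Entrez ID.

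Group means were fitted with limma (lmFit, contrasts.fit, eBayes) over all 12 arrays, with 8 residual and 4.54 prior degrees of freedom. Adjustment was by Benjamini-Hochberg over all kept probes of each of the 6 comparisons. Errors given as SE or 95% intervals come from this fit, and SD is between the 3 arrays of a group, whose small number limits precision. The fit was tested on simulated data. Alternatives covered the normalization, background correction, detection filter, probe choice, arrays in the fit, variance trend, chip, replicate number and each array left out.

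The genes, the gene lists and the naming rule (members everywhere, and from the other lists up to 4 called genes of largest difference per comparison) were chosen with earlier results of these data known. Upstream sequences are RefSeq's, build GRCm38.p6.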

Additional observations from a re-analysis of the deposited data

How the results depend on the processing

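The 14 called differences of the laminin, nidogen and perlecan genes were recomputed under 14 settings other than leaving out an array, giving 174 values. All 174 had the same sign and 173 were still called, at 0.644 to 1.879 times the reported difference. The exception was Lamc1 for passage 5 spheres against MES, at 0.93 with scaling to the median of the probes detected on all arrays, a setting chosen after seeing the data. With 1 array left out, the number of these genes called ranged from 1 to 2 for passage 15 spheres against MEF and from 1 to 2 for MEF against MES. Replicate numbers were not taken to pair arrays, since the labels tie them to no culture or day and deviations of same-numbered passage 5 and MEF arrays correlated at 0.06, 0.30 and 0.22, and those of the other 5 pairs of groups at -0.13 to 0.23. Each of these passage 5 arrays correlated best with the MEF array of its number, while MEF replicate 1 correlated best with passage 5 replicate 2 (0.17). With the replicate number as a block the count for passage 15 against passage 5 spheres was 4, the adjusted p of Lama1 for passage 5 spheres against MEF was 5.36e-06, and no call among the 8 genes changed.

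Scaling each array to the median of all its probes moved the median of all genes to -0.68 (passage 15 against passage 5), -0.31 (passage 15 against MEF), 0.30 (passage 5 against MEF), 0.61 (passage 5 against MES) and 0.25 (MEF against MES). It called 6678 probes, 3183 genes and 7 of the 8 members for passage 15 against passage 5 (4082, 1591 and 4 as reported), 5422 probes and 2786 genes for passage 5 against MES (2988 and 1367), and 3 members for MEF against MES (1). Signs turned for Lama4 (-0.46 for passage 15 against passage 5, -0.59 for passage 15 against MEF, 0.40 for passage 5 against MES, 0.53 for MEF against MES), for Lamb2 (0.0698) and Nid1 (0.29) in passage 5 against MEF, for Hspg2 in passage 5 against MES (0.61) and MEF against MES (0.17), and for Lamc1 in MEF against MES (0.20). Scaling to the detected probes turned Lama1 (0.30), Lama4 (-0.12) and Lamc1 (0.0477) in passage 15 against MEF and Lama1 (-0.24) and Lama4 (0.089) in MEF against MES. It called 2 members there, as did leaving out normexp, where Lama1 was not well above background in either group.

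The split of genes called higher and lower moved with the scaling. For passage 15 against passage 5 it was 629 to 962 as reported, 116 to 3067 with the median of all probes and 1217 to 742 with that of the detected probes. For passage 5 against MES it was 930 to 437, 2741 to 45 and 740 to 1001 in the same order. With the median of all probes it was 415 to 2195 (1140 to 1335 as reported) for passage 15 against MEF, 904 to 507 (454 to 648) for passage 5 against MEF and 1920 to 205 (1219 to 773) for MEF against MES. The cause of these shifts was not tested.

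The authors' deposited log2 table called fewer probes: 2341 (917 genes) for passage 15 against passage 5, 3566 for passage 15 against MEF, 628 (314 genes) for passage 15 against MES, 1225 for passage 5 against MEF, 1614 (784 genes) for passage 5 against MES and 2390 (1279 genes) for MEF against MES. The reported numbers of probes were 4082, 5528, 1412, 1933, 2988 and 4091. Leaving out 1 array turned the sign of differences near 0, whose ranges were -0.13 to 0.13 for Lama4 and -0.10 to 0.0155 for Lamc1 in passage 15 against MEF, -0.0094 to 0.0717 for Lama1, -0.18 to 0.0815 for Lama4 and -0.0596 to 0.19 for Nid1 in passage 15 against MES, -0.27 to 0.0711 for Nid1 in passage 5 against MEF, -0.0475 to 0.0643 for Hspg2 in passage 5 against MES, and -0.12 to 0.031 for Lama4 in MEF against MES.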
